A study of Homo sapiens with 6 samples.

Results

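In untreated HepG2 chromatin, 794 nuclear islands held fewer reads in the METTL14 immunoprecipitation (IP) than in the input. They were chosen by their untreated reads: a width over 1.2 kb and under 20 kb, 150 or more input reads, and IP reads over input reads of 0.82 or less. An island is a run of 200 bp windows that the caller SICER joined into 1 candidate region. The untreated table held 38695 nuclear islands, of which 31479 met the same width and input limits whatever their ratio; these 31479 are called the eligible islands below, and the 794 were 2.52% of them.

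HepG2 is a human hepatocellular carcinoma cell line. In every group the cells overexpressed METTL14 from a lentivirus, with an HA tag at its N-terminus and EGFP at its C-terminus, and were selected with puromycin and sorted for high GFP; the promoter of the cassette is not given in the sources used here. Chromatin immunoprecipitation with sequencing (ChIP-seq) used an HA antibody, and the input was sheared chromatin without antibody. Untreated cells gave 2 IP and 2 input libraries, and cells given 100 µM DRB for 3 h gave 1 IP and 1 input library. These values give no check of the cell type, since they hold no expression. No hg19 annotation was used, so gene content was not analysed and islands are named by their hg19 position. Replicate libraries were combined in the deposited tables, so the spread between replicates is unknown; the 95% intervals (exact Clopper-Pearson) cover counting error only.

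METTL14 is the RNA-binding partner of METTL3 in the complex that deposits N6-methyladenosine on RNA, and the complex can act on transcripts as they are made. DRB inhibits the kinase CDK9 and blocks the elongation of RNA polymerase II. An input library records how often each stretch of chromatin is recovered and sequenced without antibody, which varies with copy number, shearing and read alignment. A ratio of IP to input under that of the rest of the genome therefore means that a region was recovered relatively less with the antibody than without it.

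Reads in candidate islands came to 15339872 (IP) and 16034656 (input) for untreated cells, and to 2411436 and 2726149 after DRB. Over the nuclear islands of each condition's own list, the summed ratio of IP to input was 0.989 in untreated cells and 1.49 with DRB. Over DRB islands lying on untreated nuclear islands it was 1.32. These sums depend on the islands taken, and a ratio of 1 does not mean the same in the 2 conditions. All ratios below are of raw reads; the authors' fold is this ratio times 1.07 for untreated cells and 0.861 for DRB.

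Most of the 794 islands were shallow cases. Their ratios ran from 0.617 to 0.82 with a median of 0.796, where the eligible islands had a median of 0.993, and 698 of them lay at 0.75 or more. Only 9 were under 0.70. They held a median of 201 IP reads (111 to 2734) and 253.5 input reads (150 to 4228), and covered 3.62 Mb with a median width of 4.0 kb, against 5.2 kb for the eligible islands. Fewer IP than input reads were found in 52.3% of the eligible islands, so these 794 are the low end of a continuous spread and not a separate class. In 725 the interval of the ratio lay below 1, which the limits on ratio and input reads make likely. By the authors' constant of 1.07, a fold of 1 lies at a ratio under 1. The 725 is therefore no count of islands that were clearly low. None of the 794 was in the authors' list of significant islands, which held 5.1% of all nuclear islands, and all had an FDR of 1 in the authors' deposited table. Because the rule used these reads, they are a description and were not tested.

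**Figure D1:**
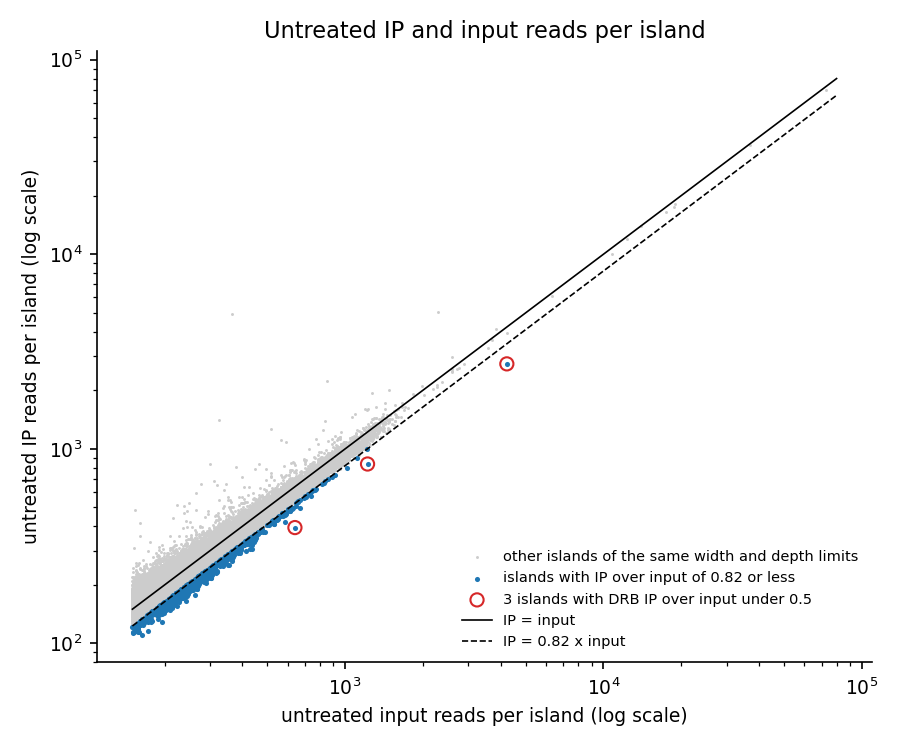
Untreated IP reads (y axis, log scale) against untreated input reads (x axis, log scale), 1 point per island. The 794 islands with IP below input (blue) lie on or under the dashed line of 0.82; nearly all are close to it, and 3 circled islands hold more input reads or a lower ratio than their neighbors.

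The members nearest the limit show how fine the boundary is. Just inside it, the island on chromosome 20 at 54953201 to 54956600 had 164 IP and 200 input reads, a ratio of 0.82. Inside it too, the islands on chromosome 2 at 209407401 and chromosome 6 at 152567401 had 182 against 222 and 191 against 233 reads. Just outside, the island on chromosome 16 at 13956401 to 13963600 had 383 IP and 467 input reads, a ratio of 0.8201. The next ones out, on chromosome 15 at 100206801 and chromosome 16 at 20393801, had 187 against 228 and 260 against 317 reads. A few reads separate the members from the non-members here.

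At the low end, the smallest ratio was on chromosome 8 at 100506001 to 100509000, with 394 IP and 639 input reads, a ratio of 0.617 (0.542 to 0.700). It was followed by chromosome 5 at 134259801 to 134261200, with 2734 IP and 4228 input reads and a ratio of 0.647 (0.616 to 0.679). A second island 1 kb further along chromosome 5, at 134262201 to 134264200, had 836 and 1221 reads and a ratio of 0.685 (0.626 to 0.748). The other 7 of the 10 lowest ratios were on chromosome 19 at 18302601 (0.658, 0.523 to 0.826), chromosome 17 at 79518601 (0.674), chromosome 10 at 7828801 (0.677), chromosome 3 at 4468001 (0.677), chromosome 16 at 70487201 (0.689), chromosome 12 at 121123401 (0.692) and chromosome 20 at 34127401 (0.703, 0.605 to 0.815). Each of these 7 held 164 to 437 input reads, and their intervals reached at least 0.815, above the upper bounds of the first 3.

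The islands with the most input reads, the 2 on chromosome 5 apart, were wide and close to the limit. An island on chromosome 2, from 64137401 to 64153400, had 993 IP and 1216 input reads (0.817, 0.750 to 0.889), and that at 208822401 to 208839000 had 797 and 1019 (0.782, 0.712 to 0.859). Chromosome 20 held islands of 899 against 1110 reads at 45305801 to 45320800 and of 703 against 859 reads at 43122001 to 43134400. The remaining ones of these 10 were on chromosome 6 at 126233801 (732 against 910 reads), chromosome 14 at 24827601 (716 against 890), and chromosome 2 at 99761401 (684 against 839) and 232640401 (664 against 828). All 8 had intervals wholly under 0.91.

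The untreated difference lay on the input side. IP reads per kb had a median of 50.9 in the 794 islands and 50.9 in the eligible ones, while input reads per kb had medians of 64.6 and 51.9. Input density was thus 24.5% above the eligible median and IP density within 0.1% of it. SICER builds islands from IP windows above a floor, which limits how low the IP density of any island can be, and the rule selects on the input, so this is a description too.

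Islands with IP below input lay on all 22 autosomes. Chromosome 2 held 192 of the 794, 24.2%, and 27.6% of the eligible islands. The share of eligible islands that were members was highest on chromosome 17, with 70 of 1523 or 4.60% (3.60 to 5.77), then on chromosome 16 with 63 of 1517 or 4.15% (3.21 to 5.28). Chromosome 19, which is dense in genes, had 10 of 264, 3.79% (1.83 to 6.86), and chromosome 20 had 83 of 2376, 3.49% (2.79 to 4.31). Chromosomes 16, 17 and 20 together held 27.2% of the members and 17.2% of the eligible islands. These 3 also had the lowest median ratios of all eligible islands, 0.969, 0.973 and 0.962. HepG2 is known to carry extra copies of these chromosomes, but also of 2 and 14, where the shares were 2.21% and 2.16%, below the 2.52% over all; copy number was not measured here and its part in the shares was not tested. The lowest share among the autosomes was on chromosome 7, with 14 of 998 or 1.40% (0.769 to 2.34). Chromosome 6 had 95 of 4869, 1.95% (1.58 to 2.38). On X and Y, 0 of 25 eligible islands were members, and 0 of 7 on X and 0 of 18 on Y allow shares of up to 42.9% and 16.7%, taken as 3 counts of the total and not as an exact interval.

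**Figure D2:**
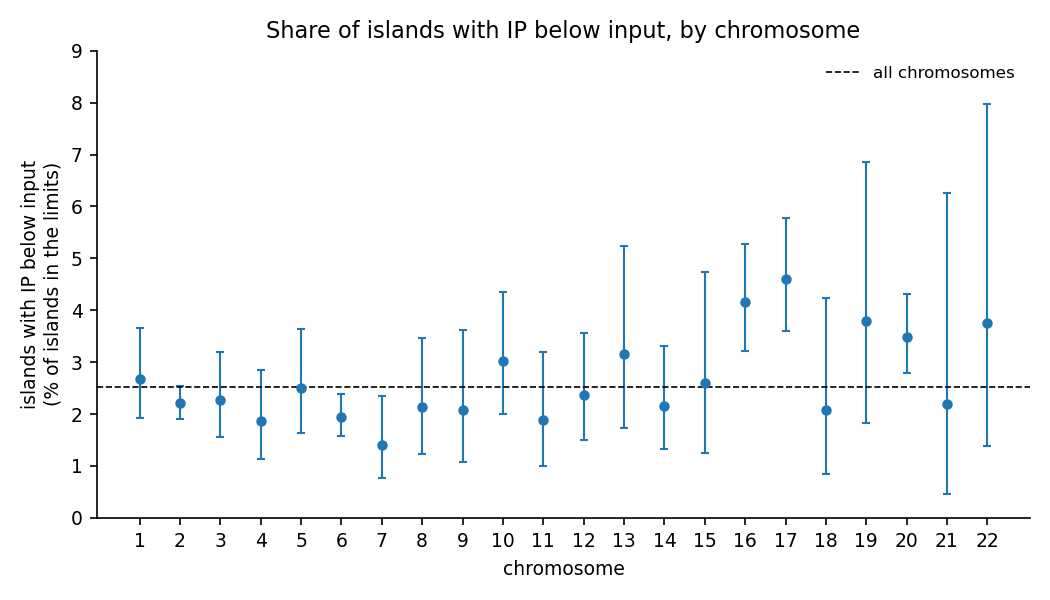
Islands with IP below input as a percentage of the eligible islands of each autosome (points; bars are exact 95% intervals for counting error; dashed line, 2.52% over all chromosomes). Chromosomes 17 and 16 lie highest, at 4.60% and 4.15%, and chromosome 7 lowest, at 1.40%.

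In 77 clusters, at least 3 members followed each other within 1 Mb, and these held 352 of the 794. No such count was made for other eligible islands, so it does not show that members lay closer together than those. Of the clusters, 25 were on chromosome 2, 12 each on chromosomes 6 and 20, 10 on chromosome 17 and 7 on chromosome 16; chromosome 2 also held the most eligible islands. The largest, on chromosome 2 between 61298801 and 64153400, had 13 members among 143 eligible islands, with ratios from 0.748 to 0.819. The cluster on chromosome 17 between 40305401 and 42092800 had 12 among 81, with ratios from 0.736 to 0.818. The median ratio of all eligible islands in these spans was 0.946 and 0.950, where all eligible islands had 0.993. These medians include the members themselves, and the spans were picked for their members, so low values follow in part from the choice. Over the 77 clusters this median ran from 0.810 to 1.07.

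The reads of adjacent islands were not used to choose a member. The next eligible island within 2 kb of a member had a median ratio of 0.946 (quartiles 0.895 and 1.0, 329 cases), where the next island to any other eligible island had 0.976 (0.918 and 1.04). Every adjacent pair was counted from both sides, so a pair of members enters these cases 2 times. At a gap of 2 to 5 kb the medians were 0.946 and 0.986, at 5 to 20 kb 0.973 and 0.995, and at 20 to 100 kb 0.987 and 1.0. Beyond 100 kb the order turned, with 1.03 next to members and 1.01 next to others. Adjacent islands were members themselves in 10 of the 329 cases within 2 kb, 3.04%, against 2.68% next to other islands. The shares were 1.93% against 2.37% at 2 to 5 kb, 5.07% against 2.38% at 5 to 20 kb (22 of 434), 2.88% against 2.62% at 20 to 100 kb and 2.25% against 2.42% beyond. Members were thus next to members more often at 3 of the 5 gaps and less often at the other 2, which was not tested. Adjacent islands seldom passed the 0.82 limit, next to members as well as next to other islands, since members were only 2.52% of the eligible islands. The quartiles of both groups overlapped at every gap.

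**Figure D3:**
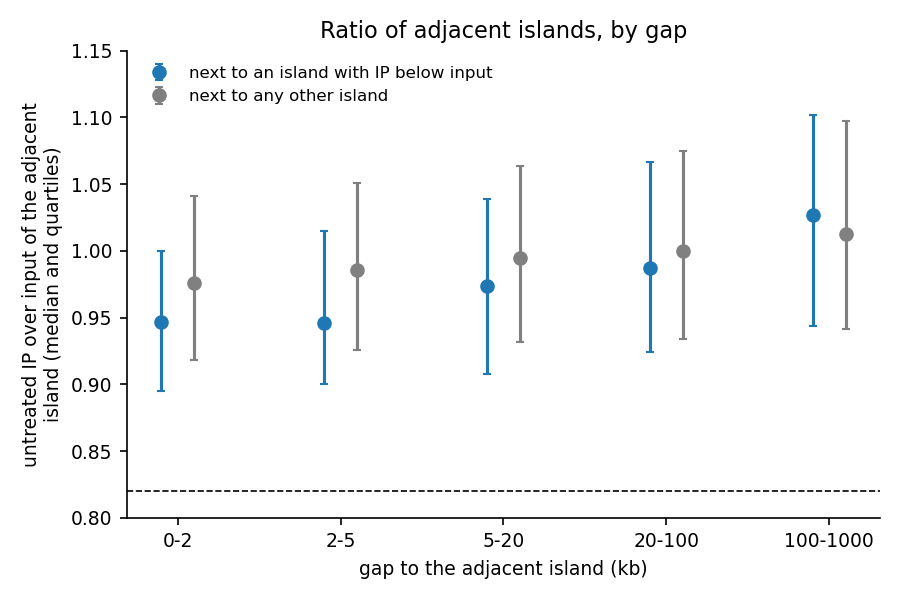
Untreated IP over input of the next eligible island (y axis) by the gap in kb (x axis), next to members (blue) and next to other eligible islands (grey). Points are medians and bars quartiles over cases, with every adjacent pair counted from both sides. The dashed line is 0.82. Next to members the median was 0.946 up to a gap of 5 kb and came closer to that of other islands with distance.

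The DRB libraries were not used by the rule and give a second readout of the same places. DRB candidate islands lay over 571 of the 794, 71.9% (68.6 to 75.0), by at least 1 bp, against 63.9% (63.4 to 64.5) of the eligible islands. Eligible islands with untreated ratios from 0.82 to 0.95 were covered as often, with shares of 71.9% to 72.5%. The DRB islands covered a median of 56.2% of each such member. In total 679 DRB islands lay over members; 1 of them lay over more than 1 member, and 60 also reached an untreated island that was no member. The reads are therefore not from exactly the same sequence in the 2 conditions. The DRB reads were few, with medians of 34 IP and 24 input reads per member.

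Relative to the eligible islands, the members lay somewhat low with DRB. The median DRB ratio was 1.38 over members (quartiles 1.14 and 1.67) and 1.50 over the eligible islands (1.25 and 1.85). A DRB ratio under 1 was found in 70 of the 571, 12.3%, against 5.73% of the eligible islands. By the authors' scaling, an exact binomial test of DRB IP against input reads over all 23638 nuclear islands with DRB reads, with Benjamini-Hochberg adjustment, called 4 of the 571 members lower at an adjusted p of 0.05, or 0.701%. The same call was made for 0.25% of all islands tested and 0.174% of the eligible ones. Without the 3 members set apart below, it called 1 of 568 lower, 0.176%. It called 1 member higher, where 0.233% of all islands were called. Before adjustment, 7 members, 1.23%, were lower at a p of 0.05 against 0.914% of all islands; without the 3 set apart these were 4 of 568, 0.704%, beside 0.711% of the eligible islands. At the same p, 33 members, 5.78%, were higher against 11.5%. The authors' scaling turns a raw DRB ratio of 1.17 into a fold of 1.00, so the neutral value of the test lies under the 1.50 median. A member can thus lie under 1.50 and still above that neutral value. With 1 library each, the test compares these libraries and not the conditions.

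DRB medians rose with the untreated ratio up to 1.2, but the relation was weak from island to island. The Spearman rank correlation of the 2 ratios was 0.109 over 20123 eligible islands and 0.0619 over the 571 members. DRB medians were 1.26 for members with an untreated ratio up to 0.75, 1.38 from 0.75 to 0.80 and 1.40 from 0.80 to 0.82. The first of these bins had 76 islands, with the 3 set apart below among them. Outside the limit they went on from 1.43 (0.82 to 0.85) to 1.59 (1.1 to 1.2), and came down to 1.24 in the 95 islands with a ratio over 1.40. The quartile ranges of neighboring bins overlapped widely. The difference was present in islands of like depth: with 21 to 40 DRB reads, members had a median of 1.62 and the other eligible islands 1.77, with 41 to 80 reads 1.33 and 1.48, with 81 to 160 reads 1.30 and 1.40, and with more than 160 reads 1.24 and 1.27. With up to 20 DRB reads the order turned, with 5.33 and 3.00, on 3 members only. Sorted by untreated input reads, members were lower in 3 of 4 classes, and with over 500 reads they had 1.44 against 1.40. Sorted by the share of the island that DRB islands covered, members were lower in 4 of 4 classes. Where over 75% was covered, the difference was small, with 1.31 over 140 members and 1.33 over the other eligible islands. On 12 of the 13 chromosomes with at least 10 members under DRB islands, the member median was below that of the eligible islands. Chromosome 20 had 1.31 against 1.46, chromosome 2 had 1.39 against 1.55 and chromosome 17 had 1.25 against 1.35; the exception was chromosome 3, with 1.54 against 1.53.

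**Figure D4:**
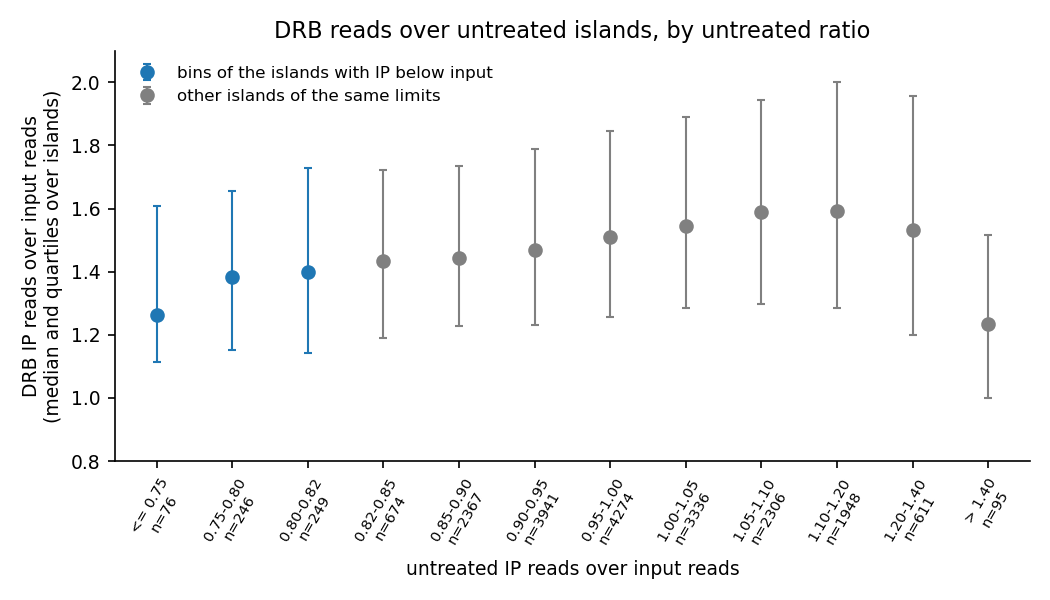
DRB IP reads over input reads (y axis; points are medians, bars quartiles over islands) for eligible islands with DRB reads, by untreated ratio (x axis; n is the number of islands). Members (blue) had medians of 1.26 to 1.40, and the other islands (grey) reached 1.59 between 1.1 and 1.2.

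Over all members, the DRB input density differed more than the IP density. DRB input density had a median of 8.46 reads per kb over members and 7.76 over the eligible islands, 9.11% higher, while DRB IP density had medians of 11.7 and 11.8. This did not hold in every class of islands: where DRB islands covered over 75% of the island, input density was 7.70 over members and 8.04 over the other eligible islands, and with more than 160 DRB reads it was 9.82 and 10.1. Where they covered up to 25%, the IP density differed too, with 15.8 and 14.2 reads per kb. The DRB input library shares no reads with the untreated one. It is the part of the pattern that the rule did not choose, though the floor on IP windows applies to the DRB islands as well.

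The DRB reads set 3 members apart, those on chromosomes 8 and 5 described above; they were singled out after their values were seen. On chromosome 5 at 134259801 the DRB reads were 1331 IP and 4377 input, a ratio of 0.304 (0.286 to 0.323). At 134262201 they were 385 and 1202, a ratio of 0.320 (0.285 to 0.360). On chromosome 8 at 100506001 they were 141 and 517, a ratio of 0.273 (0.225 to 0.329). The binomial test over all 23638 islands called all 3 lower, with adjusted p = 1.95e-122 at 134262201 and 1.05e-60 on chromosome 8, and a smaller one at 134259801. No other member had a DRB ratio under 0.561. These 3 islands held 27.2% of all DRB input reads over members: summed over the 571, the DRB ratio was 1.05, and over the 568 others 1.33, against 1.35 over the eligible islands. The median DRB ratio was 1.38 with or without them.

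Between the conditions, these 3 kept their input reads although the DRB input was much shallower. DRB input reads were 1.04, 0.984 and 0.809 times the untreated ones at the islands on chromosome 5 and 8 in the order above, where the other members had a median of 0.0834. Their DRB IP reads were 0.487, 0.461 and 0.358 times the untreated ones, against a median of 0.150. Input density was 57.7, 11.7 and 4.07 times the median of all nuclear islands in untreated cells, and 1042, 53.7 and 123 times the DRB median with DRB, where the DRB islands spanned 600, 3200 and 600 bp.

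The mitochondrial genome, which is not among the members, had values close to theirs. Its island of 16.4 kb held 844484 IP and 1373176 input reads in untreated cells, a ratio of 0.615, and 434017 and 1396131 reads with DRB, a ratio of 0.311 (0.310 to 0.312). DRB input reads were 1.02 times the untreated ones there and IP reads 0.514 times. The DRB intervals of all 3 members contained the mitochondrial ratio; of their untreated intervals, that on chromosome 8 did, and those on chromosome 5 began just above it, at 0.616 and 0.626. Nuclear chromosomes carry old insertions of mitochondrial DNA, where short mitochondrial reads can align. Whether these islands hold such copies was not tested, since no sequence of hg19 was used here.

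Only 4 more nuclear islands met the input and ratio limits but fell outside the width limits, and 3 of them had values like these. The island on chromosome 1 at 569601 to 570200 had 3155 IP and 5395 input reads untreated (0.585) and 1764 and 5450 with DRB (0.324). On chromosome 17, the single window at 22020601 to 22020800 had 355 and 565 reads (0.628), then 194 and 580 (0.334). On chromosome 7, the island at 45291401 to 45291800 had 168 and 251 (0.669), then 99 and 297 (0.333). The other one, a 20.4 kb island on chromosome 6 at 5218801 to 5239200, had 875 and 1069 reads (0.819), then 68 and 50 (1.36), like the bulk of the members. The DRB intervals of the first 3 also contained the mitochondrial ratio with DRB. Of their untreated intervals, those on chromosomes 17 and 7 contained the untreated mitochondrial ratio of 0.615. That on chromosome 1 ended just below it, at 0.611. Over all nuclear islands, these 6 were the ones with an untreated ratio under 0.7 and a DRB ratio under 0.5.

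**Figure D5:**
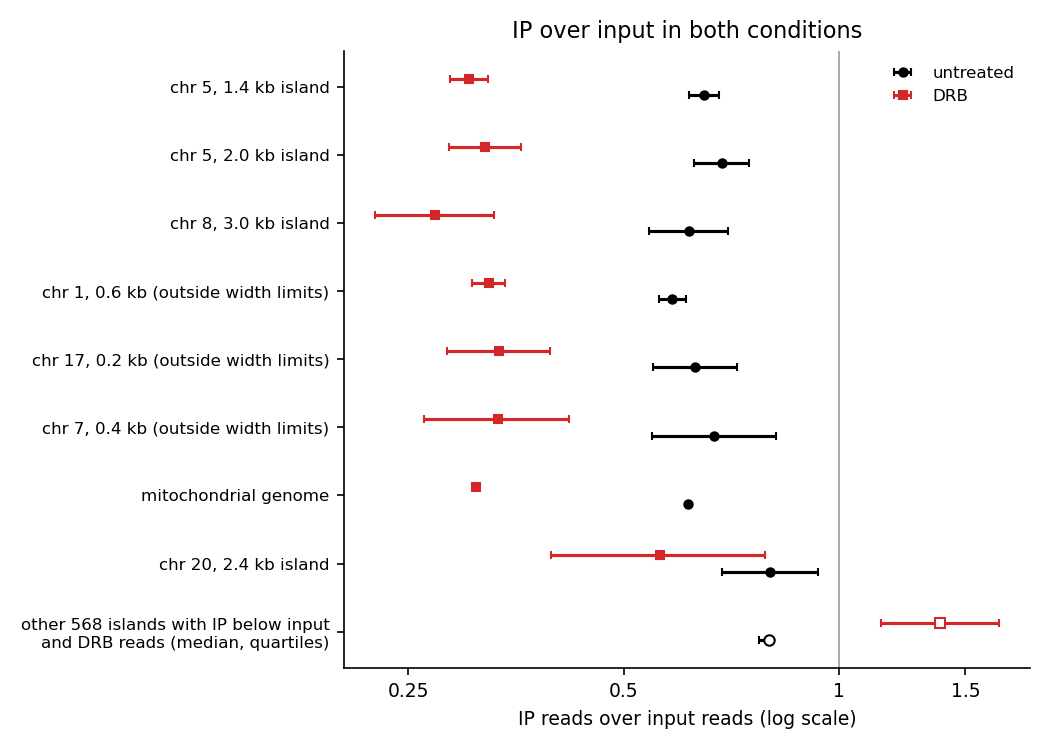
IP reads over input reads (x axis, log scale) in untreated cells (black circles) and with DRB (red squares); bars are exact 95% intervals for counting error, or quartiles for the open symbols. The 6 islands in the upper rows have DRB ratios of 0.273 to 0.334 beside 0.311 for the mitochondrial genome, while the other 568 members with DRB reads have a median of 1.38.

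The fourth member called lower with DRB was on chromosome 20 at 47130801 to 47133200. It had 301 IP and 376 input reads in untreated cells (0.801, 0.686 to 0.934), and 55 and 98 with DRB (0.561, 0.396 to 0.789; binomial test over all islands, adjusted p = 0.00601). Unlike the 3 above, its DRB input reads were 0.261 times the untreated ones. Its input density was 2.99 times the nuclear median in untreated cells and 8.75 times with DRB, so the input stood above the median in both conditions. The island on chromosome 20 at 46523401 to 46524800 came next, with 47 DRB IP and 71 input reads (0.662, 0.448 to 0.970), and did not pass after adjustment (binomial test, adjusted p = 0.188).

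Among the 10 members with the most DRB reads, the 3 set apart aside, only chromosome 2 at 208822401 lay above the 1.50 median of the eligible islands. The other eligible islands with more than 160 DRB reads had a median of 1.27. Chromosome 2 at 167068201 had 117 DRB IP and 85 input reads (1.38), and chromosome 20 at 43122001 had 114 and 80 (1.43). The island on chromosome 20 at 45305801 had 180 DRB IP and 133 input reads (1.35, 1.08 to 1.71), and that on chromosome 2 at 208822401 had 126 and 82 (1.54, 1.15 to 2.05). Lower ratios were found on chromosome 14 at 24827601, with 117 and 107 reads (1.09, 0.834 to 1.43), on chromosome 17 at 73661401, with 116 and 101 (1.15), and on chromosome 20 at 55925601, with 124 and 105 (1.18). After the authors' scaling, the first of these 3 was at 0.941 and the others at 0.989 and 1.02, and none was called in either direction. Of the 10 lowest untreated ratios, 6 lay under DRB islands; besides the 3 set apart, chromosomes 19, 16 and 20 had DRB ratios of 1.36, 1.21 and 1.21.

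Clusters differed in their DRB reads. All 13 members of the cluster on chromosome 2 between 61298801 and 64153400 lay under DRB islands, with 673 IP and 533 input reads in sum, a ratio of 1.26. In the cluster on chromosome 17 between 40305401 and 42092800, 9 of 12 did, with 302 and 278 reads, a ratio of 1.09. There the lowest DRB ratios were 0.727 at 40305401, 0.840 at 40923801 and 0.895 at 40948801. The highest were 2.40 at 40871401 and 2.22 at 41461001, on 24 and 20 IP reads. The cluster of 9 on chromosome 6 between 141610801 and 144092000 had the higher DRB ratio of 1.61, from 236 and 147 reads over 6 members. These differences between clusters were not tested.

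A significant DRB island of the authors' list lay over 13 of the 794, 1.64%, close to the 1.68% of all nuclear islands. The member called higher with DRB was 1 of these. It lies on chromosome 6 at 158152601 to 158156400, with 225 IP and 275 input reads untreated, and 29 and 5 with DRB, a ratio of 5.80 (2.22 to 19.2; binomial test over all islands, adjusted p = 0.0469). On chromosome 13, the member at 42237601 to 42244400 had the highest DRB ratio, 7.0, from 21 and 3 reads. So few input reads leave these ratios poorly determined.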

How the data were processed

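Per the submitters' processing notes, FastQC 0.11.5, Bowtie 1.1.2 and SICER (no version) were used on hg19; neither settings nor the combining of replicates are stated there. The tables have no headers, so columns were identified from their values. The deposited counts are whole IP and input reads per island, not normalized. The deposited fold is a ratio, IP over input times 1 constant per table. The deposited p-value and FDR were read only for the authors' calls, and the deposited positions of significant islands were matched to the tables.

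From these, DRB islands overlapping an untreated island by 1 bp or more were summed. DRB IP against input was tested by a two-sided exact binomial test with the authors' constant and Benjamini-Hochberg adjustment over 23638 islands. On data simulated for those 23638 islands, IP was lowered in islands with 100 or more reads, relative to input scaled by the authors' constant. The test called 80 of 100 islands at 0.5 of that scaled input, 100 of 100 at 0.25, and 8 of 23438 unchanged ones. Unchanged islands were set at the neutral ratio of the authors' scaling, while the real islands had a median DRB ratio of 1.50. Members had medians of 34 IP and 24 input DRB reads, so these rates do not carry over to most of them. Named members were the 10 of lowest ratio, of most input reads and of most DRB reads, those nearest the limit, and clusters of 3 or more within 1 Mb. The members and lists were chosen with earlier results of these data known. Alternatives were other limits, overlaps, scalings and tests. Positions are 1-based. Computation used Python 3.11.15 with SciPy 1.17.1, numpy 2.4.6 and pandas 2.3.3, and figures matplotlib 3.10.9.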

Additional observations from a re-analysis of the deposited data

How the results depend on the processing

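The number of members follows the limits: 449 at a ratio of 0.80 or less, 1730 at 0.85 or less and 267 with 300 or more input reads. With 300 or more input reads, 87.6% lay under DRB islands, against 81.9% of the eligible islands, and the share on chromosome 17 was 3.13%. DRB islands covered at least 50% of the island in 42.4% of members and 27.3% of the eligible islands. The number called lower with DRB was 2 without islands of 5 times the median input density, where 11 of 20082 eligible islands were called, 0.0548%. It was 2 at 50% cover, where 30 of 8585 eligible islands were called, 0.349%. It was 9 with the Poisson tail, and 1 without the 3 islands of DRB ratio under 0.5, an alternative chosen after seeing the data. The number called higher was 94 with the Poisson tail, which ignores the counting error of the input; by it 1.58% of members were called lower and 16.5% higher, where the eligible islands had 0.979% and 24.2%. The number called higher was 0 at a ratio of 0.80, at 300 reads, without dense islands, at 50% cover, with 20 or more DRB input reads, with the scaling centred on DRB islands of 10 kb or more and at an adjusted p of 1e-04. Few eligible islands were called higher either, 0.148% at 300 reads, 0.0598% without dense islands and 0.245% at 50% cover. These shares were 0.2% with 20 or more DRB input reads and 0.0646% with that scaling. The median DRB ratio was 1.30 at 50% cover (1.39 over the eligible islands) and 1.27 with 20 or more DRB input reads (1.35), and 0.334 over the islands outside the width limits, also added later. The summed DRB ratio was 0.911 and 1.21 at 0.80 and 0.85, 0.887 at 300 reads, 1.30 without dense islands, 1.19 at 50% cover, 0.972 with 20 or more DRB input reads and 1.33 without the 3 islands. The analyses of gene and sequence content were not run, since no annotation or genome of hg19 was used here. No paired analysis was possible because the deposited tables combine the replicates, and for the same reason no replicate could be left out. A median of 24 DRB input reads per member limits what can be seen in a single island.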

Other observations

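Many of the islands called lower with DRB were dense in the input. Of the 59 nuclear islands called lower by the binomial test, 31 had at least 5 times the median untreated input density. Leaving out islands of that density took the eligible islands with DRB reads from 20123 to 20082, and those called lower from 35 to 11. The test calls an island more easily where its reads are many, and depth was not matched here. Among the 794 islands with IP below input, 2 reached that density, both on chromosome 5.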
